A study of Onthophagus taurus with 66 samples.

Results

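The comparison described here is that of the anterior dorsal head of male and female *Onthophagus taurus*, a horned dung beetle. Of the 66 RNA-seq libraries of the series, 33 came from the anterior head, 18 of them from 6 males and 15 from 5 females, and each animal gave a left lateral (LA), a medial (MA) and a right lateral (RA) piece. The counts of the 3 pieces of an animal were added together, so that the animal was the unit of comparison, and the sexes were then compared again in the lateral pieces (LatA, LA plus RA) and in MA on their own. All animals were large larvae taken as pre-pupae in the last hours before pupation, were untreated, and carried no genetic manipulation that the labels or methods name. The tissue was the epithelium of the dorsal head, from which eye, labrum and the brain and muscle beneath were cut away. The 33 posterior libraries (LP, MP and RP) of the same animals were used only where the sex difference was set against that of the anterior head.

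Large males of this species carry a pair of curved horns on the posterior head, whereas the anterior head is comparatively flat in both sexes. In the pre-pupa the epidermis has come away from the larval cuticle, grows and folds into the shape of the pupal head, and lays down pupal cuticle. Sex differences of insect tissues are commonly set by sex-specific splice forms of transcription factors such as *doublesex*, so that a sex difference can lie in which transcript of a gene is made as well as in how much. The anterior comparison therefore asks how far the sexes differ in a region that does not bear the horns.

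The anterior libraries held 11180361 to 15745166 counts, and the sums per animal held 37060942 to 43597082 counts, with overlapping totals in the sexes. At this depth, 3 counts in the smallest sum corresponded to 0.0809 CPM (the share of all counts, scaled to a common total), which was taken as the level that a count of 0 allows (counting error only). Pairwise correlation of log2 values across transcripts ran from 0.914 to 0.957 among males, from 0.840 to 0.949 among females and from 0.849 to 0.950 between the sexes. Females 3 and 5 stood apart on the first principal component (37.9% of the variance), at 73.5 and 66.2 against -41.5 to 29.3 for the other 9 animals. In 10 of 11 animals the MA library was the most MA-like of the 3 pieces. The exception was male 1, whose MA and RA libraries went against their labels. An exchange of these libraries with each other would leave the anterior sum unchanged, but whether they were exchanged was not tested. Results for LatA and MA are given with this in view.

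No transcript passed the test in the anterior head. Of 12559 transcripts tested with edgeR's quasi-likelihood test, 0 were higher in males and 0 were higher in females at an adjusted p under 0.05 (percent called 0 in each direction), and the smallest adjusted p was 0.283. At an unadjusted p under 0.05 there were 979 transcripts (7.8%), of which 372 (2.96%) were higher in males and 607 (4.83%) in females. The outcome depended on the tool, since DESeq2 on the same sums called 109 transcripts, or 81 with a prior on the fold change, and limma voom on the sums called 0. Of the 109 DESeq2 calls, 55 had no overlap between the sexes, and in 17 at most 3 animals of the higher sex lay above every animal of the other. The median log2 fold change (males minus females, positive where males were higher, throughout) over all tested transcripts was -0.02. For 6662 transcripts (53.0%) the 95% interval of the fold change lay within 1 log2 unit of 0 on either side. The other intervals reached beyond 1 log2 unit in at least 1 direction.

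The levels of the 6 males and of the 5 females did not overlap for 50 transcripts higher in males (0.398% of those tested) and 65 higher in females (0.518%). The 12 of each direction with the smallest p are described next. DESeq2 on the same sums called all 24 of them, or 23 with a prior, whereas the adjusted p given for them below are those of edgeR. They were picked after their values were seen, so the values describe these animals and carry no claim beyond them. Most have no name in the sources used here and are given by their RefSeq accession.

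XM_023048071.1, 1 of 4 transcripts of the gene LOC111416116, is described first because it was present in every female library and nearly absent from males. The anterior sums of the 6 males were 0 CPM in 5 animals and 0.561 CPM in male 3, and those of the females were 9.28, 14.0, 11.5, 14.4 and 14.7 CPM. The fitted log2 fold change was -7.01 (95% interval -9.46 to -4.57, edgeR adjusted p = 0.283). In single libraries the transcript was at 0 in 17 of 18 male anterior libraries and at 4.43 to 21.5 CPM in all 15 female ones, and the 1 male library with a count, the LA library of male 3, had 1.74 CPM. The same separation was seen in the posterior pieces, where the posterior sums were 0 to 0.504 CPM in males and 6.86 to 15.8 CPM in females (edgeR adjusted p = 0.0292). Without male 3 the transcript was the only one called in the anterior head (edgeR adjusted p = 0.000853), and also the only one called in LatA without male 3 (adjusted p = 0.00431) and in MA without female 3 (adjusted p = 0.0126). Male 3 was the only male with a count in the anterior head, and female 3 was the lowest female in MA (4.38 CPM). These fits left out the animal closest to the other sex, so they add no support to the separation.

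**Figure D1:**
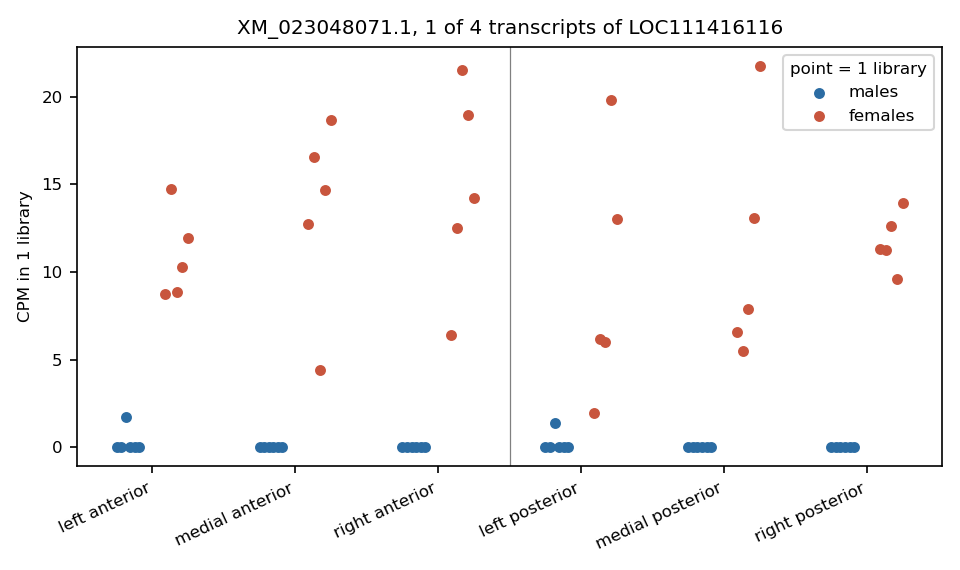
CPM of XM_023048071.1 (vertical axis) in each of the 66 libraries, by piece of the head (horizontal axis) and sex; each point is 1 library. Every female anterior library lies at 4.43 CPM or above, and 17 of 18 male anterior libraries lie at 0.

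The other 3 transcripts of LOC111416116 were present in both sexes, although male 1 had all of its 16.6 CPM on XM_023048068.1 and female 3 had none on that transcript. The gene total was 16.6 to 27.6 CPM in males and 23.98 to 50.6 CPM in females, and XM_023048071.1 made up 0 to 2.68% of it in males and 29.0 to 38.7% in females. RSEM divides reads among the transcripts of a gene by estimation, and a 0 in such a file can be the result of that division.

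A test of transcript usage asked which genes divided their counts differently between the sexes. Of 1494 genes with at least 2 tested transcripts, 3 passed (0.201%) and 42 had an unadjusted p under 0.05 (2.81%; edgeR diffSpliceDGE). LOC111416116 was 1 of the 3, with an adjusted p of 0.0172. The second, LOC111413729 (9 transcripts, adjusted p = 0.0172), was called through XM_023044814.1, which had 8.14 and 19.7 CPM in females 3 and 4, 0 in the other 3 females and at most 0.0269 CPM in males, and which never exceeded 1.13% of the gene. The third, LOC111425197 (2 transcripts, adjusted p = 0.0172), was called through XM_023059051.1, at 0 in all males and in female 1 and at 0.821 to 2.21 CPM in the other 4 females, at most 3.22% of the gene. Only the first of these separated every male from every female. The next gene, LOC111413369, did not pass (adjusted p = 0.208), although its transcript XM_023044308.1 made up 0.906 to 6.67% of the gene in males and 6.92 to 13.6% in females. LOC111414206, LOC111425201, LOC111427717 and LOC111425335 followed, with adjusted p from 0.208 to 0.299. The calls were not stable: without female 4, male 2 or male 5, or without females 3 and 5 together, 0 genes passed, 1 passed without female 5, and limma's diffSplice on voom weights called 1 gene, LOC111413369 (adjusted p = 0.0166). The known sex determination genes, among them *doublesex*, were not analysed here, because no name in the sources used here matched that list.

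Among the other leading transcripts higher in females, XM_023046800.1 is annotated as anosmin-1, with *kallmann syndrome 1* as its *Drosophila* match, an extracellular matrix protein known in vertebrates for its part in the migration of neurons from the olfactory region. Males had 17.9 to 30.8 CPM (median 19.8), and females had 50.1, 33.2, 39.8, 50.1 and 37.6 CPM. The log2 fold change was -0.96 (95% interval -1.34 to -0.57, edgeR adjusted p = 0.345). In LatA it was -0.86 and in MA -1.05, with overlap of the sexes in both. The posterior sums of the same animals held 5.16 to 10.6 CPM in males and 14.8 to 38.3 CPM in females, a log2 fold change of -1.97 that passed there (adjusted p = 0.0201).

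A pair of noncoding transcripts was nearly restricted to females in these sums. XR_002707374.1 was at 0 in all 6 males and at 1.10, 0.350, 1.35, 1.18 and 0.308 CPM in females, which is at least 10.6-fold higher when each male library sum is taken at 3 counts, and it also passed in the posterior sums (edgeR adjusted p = 0.0292). XR_002707373.1 was at 0 in 4 males and at 0.154 CPM or less in the other 2, against 4.64, 8.48, 0.715, 3.21 and 2.598 CPM in females. Its accession is next to that of XR_002707374.1, but no annotation was found for either. XM_023065510.1 (LOC111429568) had 1.99 to 5.14 CPM in males and 7.05 to 12.96 CPM in females, a log2 fold change of -1.6 (edgeR adjusted p = 0.283), and did not overlap in LatA or MA either.

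The other members of the 12 higher in females had log2 fold changes from -2.49 (XM_023048679.1, at 0.382 to 1.61 CPM in males and 1.81 to 7.29 CPM in females) to -0.49 (XM_023058962.1, at 52.6 to 63.4 and 68.1 to 91.9 CPM). Among them XM_023059374.1 and XM_023045480.1 kept the sexes apart both in LatA and in MA.

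Of the leading transcripts higher in males, XM_023045705.1 is annotated as elastin-like. It had 32.8 to 225 CPM in males (median 70.7), with males 1 and 6 at 225 and 211 CPM and the other 4 at 32.8 to 71.9 CPM, and females had 11.5, 9.95, 24.1, 11.3 and 10.2 CPM. The log2 fold change was 3.05 (95% interval 1.83 to 4.27, edgeR adjusted p = 0.345). The sexes did not overlap in MA (47.8 to 444 CPM against 12.01 to 23.2 CPM) and overlapped in LatA (14.8 to 307 CPM against 6.22 to 24.5 CPM). In the posterior sums the log2 fold change was 5.02 and passed (adjusted p = 0.0388).

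XM_023061219.1, an endocuticle structural glycoprotein SgAbd-4-like whose *Drosophila* match is cuticular protein 49Ae, belongs to the structural proteins of the cuticle. Its level was 2.72 to 27.9 CPM in males (median 20.6), and 1.97, 2.66, 0.547, 1.38 and 0.220 CPM in females. Males 2 and 5, at 2.72 and 2.85 CPM, lay just above the highest female, and the log2 fold change was 3.61 (95% interval 1.78 to 5.43, edgeR adjusted p = 0.593). The posterior sums gave 4.82, which passed (adjusted p = 0.0193).

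The most abundant of the 12 were XM_023055119.1 (LOC111421916), at 3515 to 5426 CPM in males and 1654 to 3330 CPM in females, and XM_023061174.1 (LOC111426571), at 2292 to 4102 CPM in males and 1956, 1408, 1529, 2152 and 1354 CPM in females. The log2 fold change of XM_023061174.1 was 1.01 (95% interval 0.56 to 1.46, edgeR adjusted p = 0.577) in the anterior sums and 2.09 (adjusted p = 0.0229) in the posterior sums, where males had 6547 to 12393 CPM and females 1250 to 3274 CPM. XM_023063239.1 (LOC111427882) had 26.7 to 41.2 CPM in males and 14.0 to 20.8 CPM in females, a log2 fold change of 0.93. It was 0.86 in LatA and 1.04 in MA, where the sexes overlapped (17.2 to 48.7 CPM in males against 11.2 to 25.9 CPM in females). The lowest of the 12 was the noncoding XR_002707712.1, at 0.544 to 1.53 CPM in males and 0.0420 to 0.169 CPM in females (log2 fold change 3.87, 95% interval 2.54 to 5.21, edgeR adjusted p = 0.283), where 4 of the 5 females were below the level of 3 counts. XM_023051360.1, XM_023056708.1, XR_002708027.1, XM_023055123.1, XM_023059716.1 and XM_023046648.1 completed the list, with log2 fold changes from 0.38 to 2.63.

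**Figure D2:**
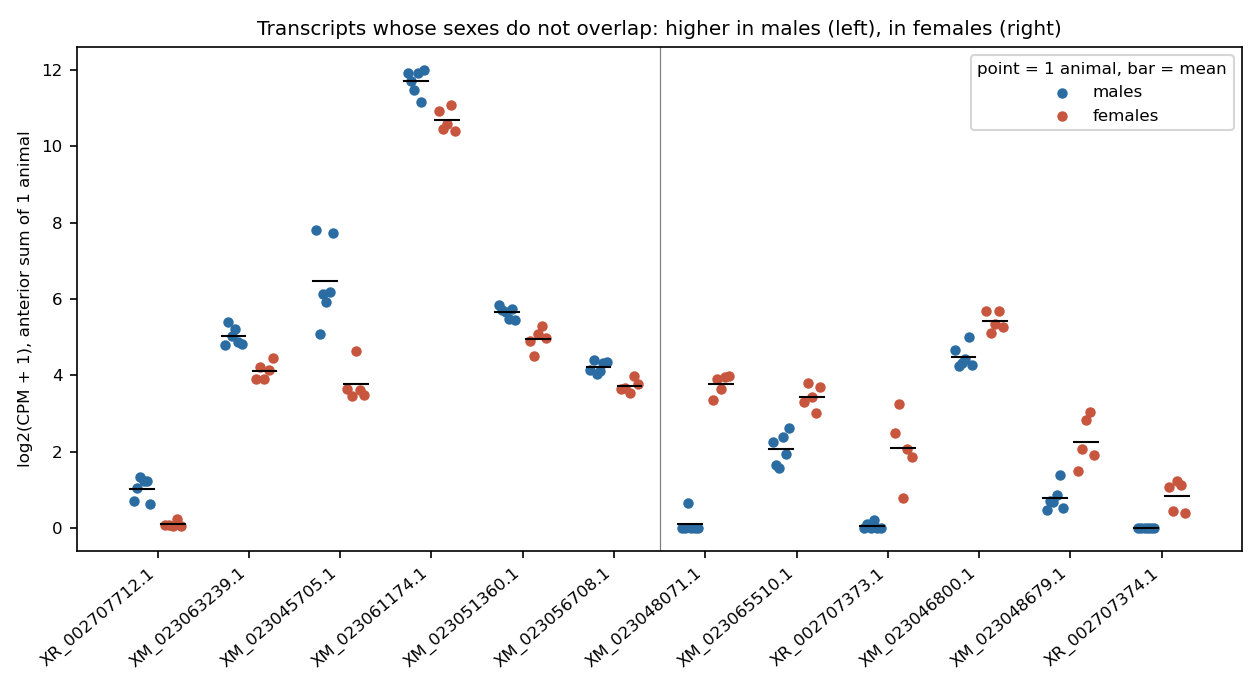
log2(CPM + 1) in the anterior sum of each animal (vertical axis) for the 6 transcripts of each direction with the smallest p among those without overlap of the sexes (horizontal axis); points are animals and bars are means. XM_023048071.1 and XR_002707374.1 sit at or near 0 in males, whereas XM_023061174.1 is abundant in both sexes and about 2-fold higher in males.

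The genes that pattern the insect head were then examined as a group. These transcription factors and Wnt and Hedgehog signalling genes divide the embryonic head into segments and eye, labral and brain territories, and the study followed them into the pre-pupal head, having chosen several for how they differed among head regions in these same libraries. Of 30 transcripts in the list, 24 were tested in the anterior sum, 0 passed with edgeR or DESeq2, and 1 had an unadjusted p under 0.05, against 7.8% of all tested transcripts. Their log2 fold changes ran from -1.29 (*lim1*) to 0.52 (*wingless*) with a median of -0.02, which was also the median over all tested transcripts. For 23 of the 24 the 95% interval included 0, and the interval lay within 1 log2 unit of 0 for 10 and within 1.5 units for 19. *pannier*, *crocodile*, *otd2*, *invected*, *engrailed* and *labial* were too low to test, at no more than 0.459 CPM in any animal, and *otd2* was at 0 in all 11.

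**Figure D3:**
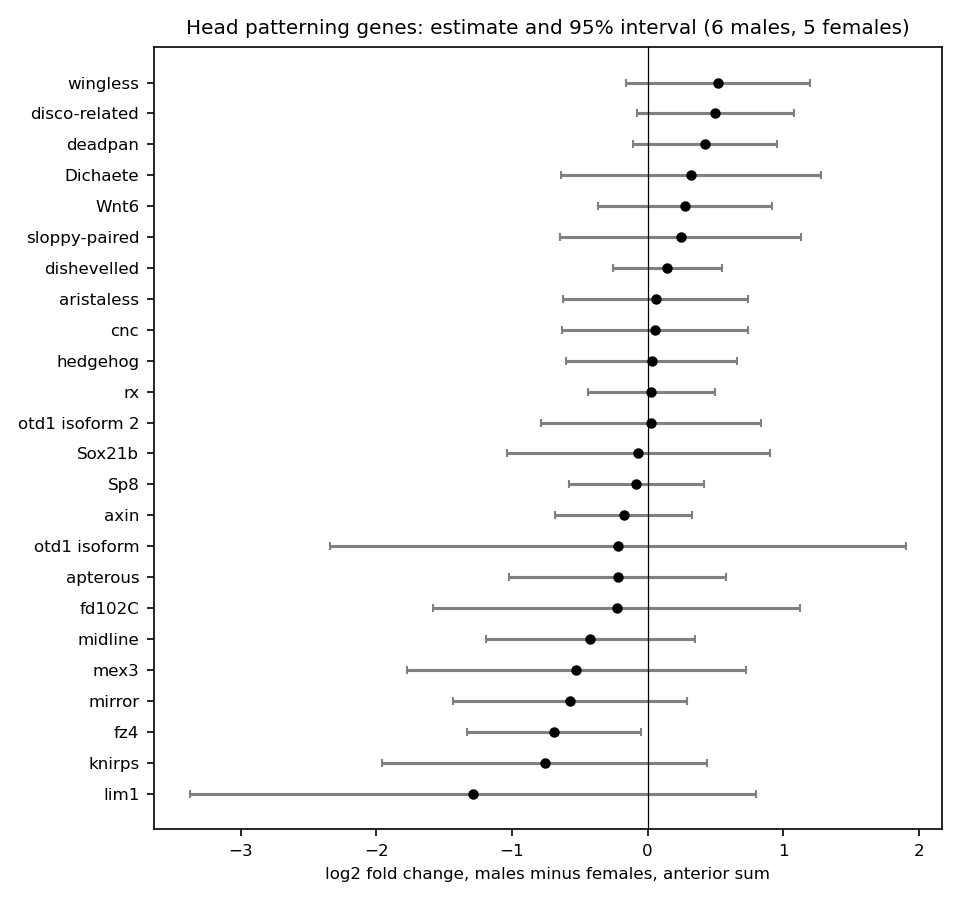
Log2 fold change, males minus females, in the anterior sum for the 24 tested head patterning transcripts (vertical axis), with 95% intervals as bars (6 males, 5 females). Estimates lie between -1.29 for lim1 and 0.52 for wingless, and only the interval of fz4 leaves out 0.

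The study singled out 3 of these genes for their anterior expression, and each had nearly the same median in both sexes. *retinal homeobox* (*rx*), which in *Drosophila* is needed for brain and clypeus development, had 34.5 to 56.8 CPM in males (median 50.2) and 33.7, 30.2, 51.9, 51.8 and 62.5 CPM in females, a log2 fold change of 0.03 (95% interval -0.44 to 0.50). *cap'n'collar* (*cnc*), which in *Drosophila* is needed for mandibular and labral structures, had 26.2 to 82.3 CPM in males (median 43.6) and 44.4, 50.01, 24.96, 66.3 and 48.4 CPM in females (log2 fold change 0.05, interval -0.63 to 0.74). *Sp8*, a zinc finger factor needed for the outgrowth of appendages, had 6.03 to 10.3 CPM in males (median 7.36) and 9.38, 10.6, 4.33, 8.45 and 8.59 CPM in females (-0.08, interval -0.58 to 0.42). For all 3 genes a 2-fold sex difference in either direction lay outside these intervals.

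The Wnt receptor *frizzled 4* (*fz4*) was the member with the unadjusted p under 0.05. Males had 4.96 to 7.56 CPM, and females had 5.40, 6.97, 13.1, 5.91 and 16.3 CPM, so that the 2 highest values were those of females 3 and 5, the animals that stood apart. Its log2 fold change was -0.69 (95% interval -1.33 to -0.05, edgeR unadjusted p = 0.0374, adjusted p = 0.627). *hedgehog*, a segment polarity ligand, stayed between 0.793 and 1.93 CPM in all animals (0.03, interval -0.60 to 0.66), and the main transcript of *orthodenticle 1* (*otd1*, isoform 2), a head gap gene, had 5.02 to 10.8 CPM in males and 3.19 to 14.5 CPM in females (0.02, interval -0.79 to 0.84). Among the genes that act within cells receiving Wnt signals, *dishevelled*, which passes the signal on, was at 0.14 and *axin*, which restrains it, at -0.18.

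The Wnt ligands *wingless* and *Wnt6* did not separate the sexes in the anterior sum. *wingless* had 4.76 to 17.7 CPM in males (median 9.77) and 5.63, 5.22, 9.76, 7.77 and 8.98 CPM in females, a log2 fold change of 0.52 (95% interval -0.16 to 1.19), and *Wnt6* had 27.7 to 63.3 CPM in males (median 36.9) and 20.9, 21.7, 51.5, 28.5 and 44.1 CPM in females (0.28, interval -0.36 to 0.92).

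In the medial piece alone, both ligands were higher in every male than in every female. On the scale of the fit (TMM-normalised CPM), *Wnt6* in MA had 19.5, 22.5, 19.1, 30.3, 24.6 and 28.2 CPM in males and 12.3, 11.5, 11.9, 12.1 and 14.6 CPM in females. Its log2 fold change was 0.93 (95% interval 0.61 to 1.26, edgeR unadjusted p = 6.49e-05, adjusted p = 0.266). *wingless* in MA had 5.63, 5.81, 4.03, 6.74, 9.15 and 5.65 CPM in males and 2.61, 2.05, 1.98, 3.23 and 3.71 CPM in females, a log2 fold change of 1.17 (interval 0.60 to 1.73, unadjusted p = 0.000843, adjusted p = 0.826). Neither passed after adjustment over all transcripts. The sexes did not overlap for 30 transcripts higher in males (0.237% of the 12667 tested in MA) and 33 higher in females (0.261%). With the MA and RA libraries of male 1 exchanged the log2 fold changes were 1.10 for *Wnt6* (adjusted p = 0.206) and 1.14 for *wingless* (0.757), and without male 1 they were 0.99 (adjusted p = 0.179) and 1.20 (0.821).

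The lateral pieces gave smaller estimates, 0.14 (95% interval -0.59 to 0.87) for *Wnt6* and 0.38 (interval -0.41 to 1.18) for *wingless*, with wide overlap. The difference between LatA and MA was itself tested: it was -0.76 for *Wnt6* and -0.91 for *wingless*, with unadjusted p of 0.0407 and 0.041 and an adjusted p of 0.983 for both (edgeR), and without male 1 the unadjusted p were 0.078 and 0.0645. The genes lie on the same chromosome of the IU_Otau_3.0 assembly with 1 gene between them. *axin* also had an unadjusted p under 0.05 in MA (log2 fold change -0.46, unadjusted p = 0.00868, adjusted p = 0.905). Its sexes overlapped there, at 9.63 to 13.1 CPM in males and 11.8 to 19.1 CPM in females. With the libraries of male 1 exchanged its unadjusted p was 0.0526, and without male 1 it was 0.0176 (edgeR). As labelled, this made 3 of 21 tested members of the list in MA, against 5.45% of all transcripts tested in MA.

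**Figure D4:**
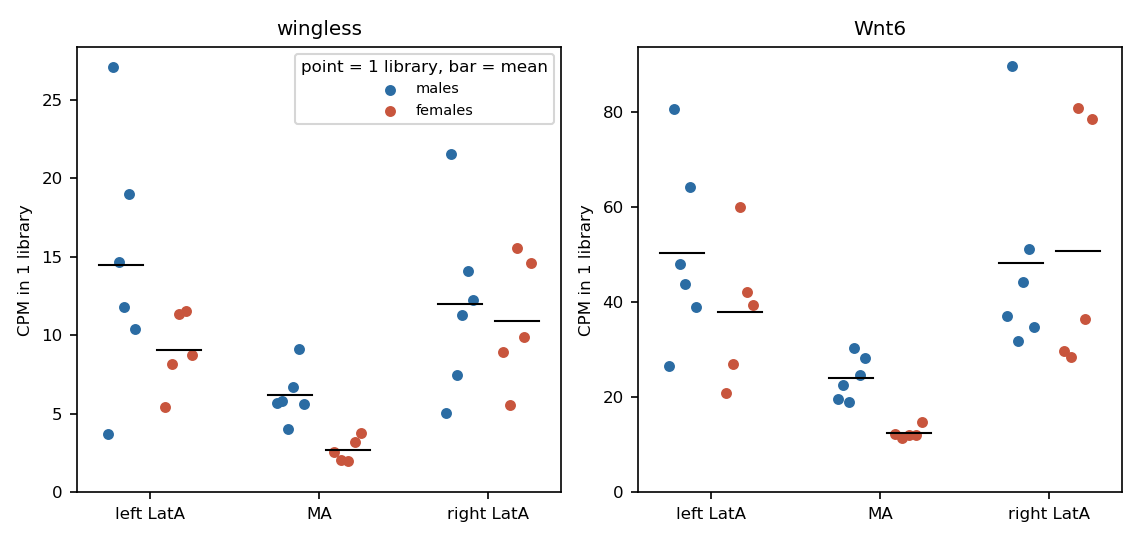
CPM of wingless (left) and Wnt6 (right) in each anterior library (vertical axes), by piece and sex; points are libraries and bars are means. In MA the males lie above the females for both genes, at 4.01 to 9.16 against 2.01 to 3.78 CPM for wingless (TMM over all 66 libraries), whereas the lateral pieces overlap.

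Over all transcripts, the separate fits gave the same count as the sum. In LatA 0 of 12690 transcripts passed in either direction and 932 (7.34%) had an unadjusted p under 0.05 (edgeR, smallest adjusted p 0.645), while DESeq2 called 71, or 37 with a prior. In MA 0 of 12667 passed and 690 (5.45%) had an unadjusted p under 0.05 (smallest adjusted p 0.104, that of XM_023048071.1, at 0 in all 6 MA libraries of males and at 4.43 to 18.7 CPM in females), while DESeq2 called 67, or 29 with a prior. The sex difference of LatA minus that of MA passed for 0 of 13554 transcripts, with 600 (4.43%) at an unadjusted p under 0.05 (edgeR, the only tool run for it). XM_023064205.1, the transcript with the smallest p of that test, had an adjusted p of 0.886.

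Genes that build cuticle were taken from the names given in the study's own tables of region differences, which were chosen on these libraries. Of 33 such transcripts 25 were tested, 0 passed with edgeR and 1, XM_023061219.1, with DESeq2, and 6 were higher in males and 1 in females at an unadjusted p under 0.05, against 2.96% and 4.83% of all tested transcripts. The list's median log2 fold change was 0.16, and its summed level was 755 to 1597 CPM in males and 528 to 2263 CPM in females. The members with the highest levels did not differ beyond their spread: cuticle protein 16.5-like (XM_023050861.1) had 317 to 905 CPM in males and 112 to 1603 CPM in females (-0.48, 95% interval -1.84 to 0.88), and cuticle protein 2-like (XM_023064023.1) had 81.6 to 222 and 58.3 to 257 CPM (0.16, interval -0.62 to 0.94). Beside XM_023061219.1, pupal cuticle protein 36-like (XM_023053048.1) had 19.7 to 127 CPM in males and 5.68 to 21.3 CPM in females (1.82, interval 0.61 to 3.04, edgeR unadjusted p = 0.00714, adjusted p = 0.593). The member higher in females was probable chitinase 10 (XM_023061887.1), an enzyme that breaks down the chitin of old cuticle, at 11.8 to 60.7 CPM in males and 33.4, 45.8, 284, 37.0 and 158 CPM in females (-1.55, unadjusted p = 0.0357). Only females 3 and 5, the animals that stood apart, lay above the male range.

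Markers of muscle had lower estimates in males, although muscle had been dissected away. Of 17 transcripts on that list 14 were tested and 0 passed with edgeR or DESeq2. Of the 14, 13 had a negative log2 fold change, and 10 of them had an unadjusted p under 0.05, against 4.83% of all tested transcripts, with a median of -1.44 against -0.02 over all. Myosin regulatory light chain 2 (XM_023062720.1) had 7.93 to 50.1 CPM in males and 16.98 to 114 CPM in females (-1.50, 95% interval -2.77 to -0.22), and muscle-like actin (XM_023048382.1) had 7.96 to 36.7 and 17.01 to 57.3 CPM (-0.86, interval -1.84 to 0.12). The summed level of the list was 55.6, 111, 110, 80.3, 249 and 72.0 CPM in males and 116, 334, 347, 639 and 113 CPM in females, so that male 5 lay above females 1 and 5. In bulk samples more muscle cells and more RNA per cell cannot be told apart, and the part of muscle in the other results was not tested beyond a fit with the list's level as a covariate, in which 0 transcripts passed and 555 had an unadjusted p under 0.05.

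Other gene groups held few named members. The 7 photoreceptor transcripts, whose tissue had also been removed, summed to 0.137 to 1.49 CPM in males and 0.157 to 1.98 CPM in females, too low to test. Of 3 tested odorant binding and chemosensory transcripts, the takeout-like XM_023053784.1, of a family of secreted carriers linked to feeding and circadian behaviour in *Drosophila*, had 3.09 to 54.9 CPM in males and 1.96 to 11.2 CPM in females (1.89, 95% interval 0.25 to 3.54, edgeR unadjusted p = 0.028, adjusted p = 0.607). Of the pigment and tanning genes, *ebony* (XM_023055814.1), which links dopamine to beta-alanine for tan cuticle, had 186 to 543 CPM in males and 86.1 to 797 CPM in females (-0.35, interval -1.52 to 0.82). The insulin-like receptor (XM_023058767.1), which couples nutrition to growth, was at 0.04 (interval -1.17 to 1.25). No member of the immune (6 tested), insulin and growth (3), pigment (3), appendage patterning (2), hemocyte (1), neuron and glia (1), heat shock (1) and ecdysone and juvenile hormone (1) groups had an unadjusted p under 0.05. The immune group was drawn up by name and included transcripts annotated as toll-like receptor 6, so it is not a set of immune genes alone.

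The posterior head of the same animals served as the contrast. There, 56 of 13176 transcripts were higher in males (0.425%) and 22 in females (0.167%) at an adjusted p under 0.05 (edgeR). Of these 78, 74 were tested in the anterior sum, where 32 had an unadjusted p under 0.05 (7.8% over all tested transcripts), all 32 in the posterior direction, and 21 had an absolute log2 fold change over 1 (9.65% over all). The libraries differ but the animals are shared, so this is no independent repeat.

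Whether the sex difference itself differed between the anterior and posterior head was tested within animals. Of 13783 transcripts 59 passed (0.428%), 55 with a male minus female difference that was lower in the anterior than in the posterior head (0.399%) and 4 with the reverse (0.029%), and 1533 (11.1%) had an unadjusted p under 0.05 (edgeR). Of the 59, 17 were also called between the sexes in the posterior sum, 53 had higher estimates in males there, and 22 of those 53 had a negative estimate in the anterior sum. The count rested on single animals: it was 6 without female 3, 2 without both females 3 and 5, and 166 without female 2, and each of females 4 and 5 and males 2, 3, 4, 5 and 6 lowered it to between 10 and 28 when left out.

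The homeobox gene *rx*, with a log2 fold change of 0.03 in the anterior sum, had 8.67 to 22.01 CPM in males and 3.35 to 6.44 CPM in females in the posterior sum, a log2 fold change of 1.70 (edgeR adjusted p = 0.0201), and the difference of -1.61 passed (adjusted p = 0.0181). Serine protease 7-like (XM_023064084.1), matched to a *Drosophila* protease of the response to Gram-positive bacteria, had 3.97 to 9.14 CPM in males and 1.82 to 12.7 CPM in females in the anterior sum (-0.08), and 37.5 to 72.6 against 5.07 to 30.1 CPM in the posterior sum (2.23), a difference of -2.33 (adjusted p = 0.00331). Cuticle protein 7-like (XM_023047530.1) was among the 4 in the other direction: it had 19.6 to 80.1 CPM in males and 8.45 to 46.1 CPM in females in the anterior sum (0.80), and 0.154 to 1.59 against 2.603 to 69.4 CPM in the posterior sum (-5.02), a difference of 5.27 (adjusted p = 0.0398).

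The other transcripts with the smallest p of that test were XM_023055442.1, with log2 fold changes of -0.79 in the anterior and 3.01 in the posterior sum, XM_023055936.1 (-1.0 and 0.90), XM_023059729.1 (0.20 and 2.08) and XM_023058260.1 (-0.07 and 0.91). Between the sexes, XM_023055442.1 (edgeR adjusted p 0.856 anterior, 0.190 posterior) and XM_023055936.1 (0.607 and 0.294) passed in neither sum. XM_023059729.1 and XM_023058260.1 passed in the posterior sum only (0.0193 and 0.0401). Pupal cuticle protein 36-like, described above, was higher in males in both regions and more so in the posterior sum, where males had 3.45 to 34.2 CPM and females 0.380 to 1.17 CPM (3.98 against 1.82 in the anterior sum, difference -2.00, adjusted p = 0.012).

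**Figure D5:**
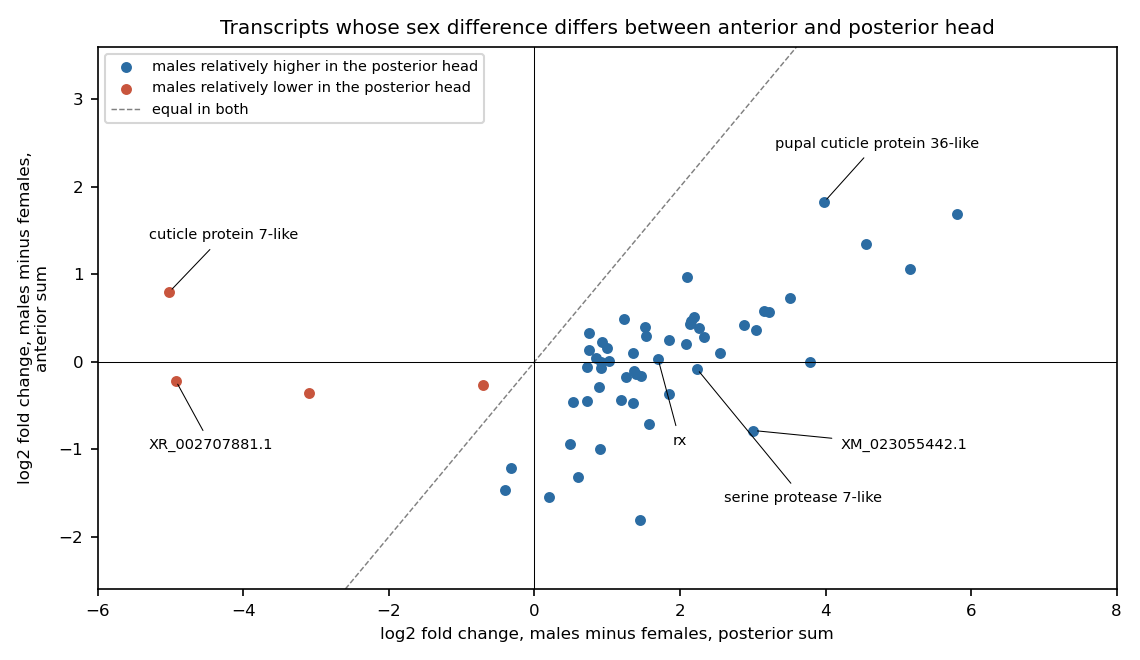
Log2 fold change, males minus females, in the anterior sum (vertical axis) against the posterior sum (horizontal axis) for the transcripts, of the 59 that passed the test of the difference, with both values; each point is 1 transcript and the dashed line marks equal values. Nearly all lie right of the line, with rx at 0.03 in the anterior and 1.70 in the posterior sum.

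The counts were finally summed by chromosome, for the transcripts placed on the 9 chromosomes of the IU_Otau_3.0 assembly with at least 50 tested transcripts. Chromosome 8 took 3.20 to 3.68% of the counts in males (mean 3.50 ± 0.169, SD, n = 6) and 3.77 to 4.31% in females (3.94 ± 0.219, SD, n = 5), with no overlap (exact permutation test, two-sided, p = 0.00216, the smallest that 6 animals against 5 can give, adjusted p = 0.0195 over 9 chromosomes). The posterior sums of the same animals gave 3.17 to 3.61% and 3.91 to 5.01% (exact p = 0.00216). Without the 5 transcripts with the largest absolute differences in share, the anterior shares were 2.67 to 3.10% and 3.04 to 3.46% (exact p = 0.00649). Those 5 included XM_023059664.1, which had the larger share in males (0.0875% against 0.0598%), so leaving it out added to the female excess. The 786 tested transcripts of chromosome 8 had a median log2 fold change of -0.05, against -0.02 over all tested transcripts. Of those on chromosome 8, 43.8% were positive, against 46.2 to 50.7% on the other chromosomes and 5946 of the 12559 tested transcripts over all. Chromosome 3 held 29.3 to 34.5% of the counts in males and 25.8 to 30.2% in females, which did not pass (exact p = 0.013, adjusted p = 0.0584), and no other chromosome passed. As the mean of log2(CPM + 1) over its transcripts, which weights abundant and rare transcripts alike, the difference of chromosome 8 was -0.04 with an adjusted p of 0.483 (exact permutation test). The share of chromosome 8 no longer passed without female 2 (difference -0.348 percentage points against -0.44 with all animals, exact permutation test, adjusted p = 0.0643). Leaving out a male leaves 5 against 5, with which 1 chromosome alone cannot pass. A loss of the call without a male therefore says nothing of that male. Without male 6, 2 chromosomes passed together (exact permutation test, adjusted p under 0.05).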

How the data were processed

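Stranded poly(A) libraries of dissected head epithelium were made and sequenced by the authors, who trimmed the reads with Trimmomatic 0.32, aligned them to the *O. taurus* gene models with Bowtie2 2.3.2 and quantified transcripts with RSEM 1.3.0. The authors deposited 1 table of expected counts for 23725 RefSeq transcripts (21668 mRNA and 2057 noncoding) in 66 libraries, and 74.3% of the values were whole. RSEM divides reads between transcripts of a gene and between near-identical copies by estimation, so single transcripts of a gene are less certain than its total, and a 0 can be a product of that division.

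Libraries were grouped by the sex, animal and piece in the labels. The counts of LA, MA and RA of each animal were added and then rounded. Transcripts with over 1 CPM in at least 2 animals were kept, normalised by TMM and tested with edgeR 4.0.16 (quasi-likelihood F-test, R 4.3.3) with Benjamini-Hochberg adjustment over all transcripts tested, and a stricter rule (adjusted p under 0.001 and absolute log2 fold change over 2, after the study) was applied beside it, with 0 calls. The 95% intervals are the fold change plus or minus its standard error times the t quantile of the fit. CPM values of transcripts are on the TMM scale throughout. The factors came from the samples of the fit wherever a fit is described (sums, LatA and MA). They came from all 66 libraries together where single libraries are counted or plotted, so the 2 kinds of value differ slightly. The differences between regions were fitted with the animal as a block. Usage was tested with edgeR's diffSpliceDGE, and chromosome shares by exact permutation over animals. DESeq2 (here 1.42.0, the version used by the study being not given in the sources used here) and limma 3.58.1 were alternatives, as were other filters, size factors, added covariates and leaving out each animal. No 2 of the 75 pairs of libraries of a sex and piece held identical values. The scripts were tested on simulated data.

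Symbols and chromosomes came from the IU_Otau_3.0 table of RefSeq (15104 transcripts found, of 10670 genes), whose build differs from the gene models used, so coordinates are not given. Names came from the study's tables, which annotate 368 transcripts (235 tested here) picked for region differences in these same libraries. Named transcripts were to be the 12 called in each direction with the largest change, of which there were 0. The 12 without overlap and with the smallest p in each direction, picked after the values were seen, stand in for them. To these were added the head patterning list, the 2 most abundant members of each other list, the 8 genes of the usage test and 5 transcripts of each test between regions. Members and lists were chosen with earlier results of these data known. The lists of sex determination, dosage compensation, ribosome, cell cycle, fat body and epidermis genes matched no annotated transcript and were not analysed here, and some loci are not reported here. A further female prepared by the study was not analysed here. Labels name separate animals, and nothing in the labels gives litters or days.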

Additional observations from a re-analysis of the deposited data

Results flagged for a closer look

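Within the 106 groups of 5 or 6 animals examined for named transcripts, 5 held an animal far from the rest of its group by Dixon's criterion, and about 5% of groups would do so by chance. For XM_023048071.1 it was male 3, at 0.561 CPM where the other males were at 0. Among the females, female 4 had 0.169 CPM of XR_002707712.1, female 3 had 24.05 CPM of XM_023045705.1, and female 5 had 4.80 CPM of *lim1* (XM_023051010.1). Male 5 had 1.613 CPM of XM_023048679.1, just under the lowest female at 1.81 CPM.

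The sex difference differed between the anterior and the posterior head for 59 transcripts, by a test of the difference within animals. The smallest p belonged to XM_023055442.1 (log2 difference, anterior minus posterior, -3.60), XM_023055936.1 (-1.84), XM_023064084.1 (-2.33), XM_023059729.1 (-1.81) and XM_023058260.1 (-0.98). XM_023055442.1 had 15.7 to 159 CPM in males and 12.3 to 328 CPM in females in the anterior sum, and 29.1 to 734 and 3.56 to 106 CPM in the posterior sum.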

How the results depend on the processing

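For the anterior sum, 0 calls became 454 (182 higher in males, 272 in females) with the 33 libraries as separate replicates, 24 (16 and 8) with limma voom and the animal as a random effect, 109 (41 and 68) with DESeq2 and 81 (32 and 49) with DESeq2 and a prior, and under the strict rule 4, 1, 13 and 3. The 33-library fit counts pieces of 1 animal as replicates. All 81 were among the 109. For LatA, DESeq2 gave 71, or 37 with a prior, and left and right as separate replicates 9, with 10 by DESeq2 under the strict rule. For MA, DESeq2 gave 67, or 29 with a prior, and under the strict rule 25 and 4. Leaving out 1 animal gave 0 to 1 calls in the anterior sum (strict 0 to 1), LatA and MA, 0 for LatA against MA, 6 to 166 for anterior against posterior, 0 to 2 chromosomes and 0 to 4 usage genes. The 59 became 160 with limma voom and 2 without females 3 and 5. The 1 chromosome became 0 on the mean log2 scale, on which chromosome 3 reversed to -0.00106, and 0 without females 3 and 5. The latter says nothing of those animals, because 6 against 3, like 5 against 5, cannot bring 1 chromosome alone past the threshold. The 3 usage genes became 1 with limma voom and 0 without females 3 and 5. RLE size factors, no filter, gene sums, equal pieces, a robust fit, limma voom on the sums, the muscle covariate and exchanging the libraries of male 1 each left 0 calls where they were run. With the replicate number as a block (5 males, 5 females), 0 passed (smallest adjusted p 0.751, 764 at an unadjusted p under 0.05). Same-numbered animals correlated at 0.37, -0.26, -0.17, 0.08 and 0.36, with no common sign. From 5 such values a pairing by number can be neither shown nor excluded. The causes of these shifts were not tested otherwise.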
